A study of Homo sapiens with 6 samples.

Results

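The 10 genes described here are known targets of the transcription factor ATF4 that carry out its stress response outside of tRNA charging, amino acid transport and serine synthesis. They are STC2, SESN2, CHAC1, DDIT4, VLDLR, CEBPB, ASNS, NUPR1, XPOT and FGF21. They were chosen by gene name out of 58302 genes listed for each library, with earlier results of these data known. All 10 are described, whatever their values. Their levels come from RNA sequencing of HCCLM3, a metastatic human liver cancer cell line. One group of 3 libraries came from HCCLM3 cells transfected with SCARNA13 ASO and one of 3 libraries from HCCLM3 cells transfected with Control ASO. An ASO, or antisense oligonucleotide, is a short synthetic nucleic acid that base-pairs with its target RNA. SCARNA13 is a small Cajal body-specific RNA, and the comparison asked which genes act downstream of it. The level of each gene was deposited as FPKM, a fragment count scaled by gene length and library size.

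ATF4 is made when kinases that sense amino acid shortage, misfolded protein, viral RNA or heme shortage phosphorylate the initiation factor eIF2. General translation then slows while the ATF4 message is translated more. ATF4 pairs with C/EBP proteins at a composite DNA element, the C/EBP-ATF response element, and raises genes that restore amino acid supply, restrain growth through mTORC1 or, when stress lasts, favour cell death. In liver this programme also reaches secreted hormones such as FGF21.

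The letters of the element are shown for the genes that hold it next to their start site. RefSeq promoter windows (GRCh38.p14) of 300 bases, 250 before and 50 after each start, covered 9 of the 10 genes in 11 windows. The letters TGATGNAAN, searched on both strands, were present in 3 of these 11 windows, for ASNS, CHAC1 and FGF21, and in 3.61% of all 35116 windows. In the lines that follow, read along the gene from 5′ to 3′, capitals mark the element. It reads on the gene strand in ASNS and on the opposite strand in CHAC1 and FGF21.
ASNS, chr7:97872457-97872486, minus strand: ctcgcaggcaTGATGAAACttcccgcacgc
CHAC1, chr15:40953251-40953280, plus strand: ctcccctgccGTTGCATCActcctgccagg
FGF21, chr19:48755459-48755488, plus strand: aaacaccaggATTGCATCAgggaggaggag
The ASNS element lay 68 to 60 bases upstream of the RefSeq start, that of FGF21 55 to 47 bases and that of CHAC1 210 to 202 bases. The gene positions given below come with the deposited values and start elsewhere. The ASNS and CHAC1 elements lie inside those positions. Neither the cyclic AMP element TGACGTCA (1.85% of all windows) nor the endoplasmic reticulum stress element ERSE (0.0769%) matched any of the 11 windows on either strand. STC2, SESN2, DDIT4, CEBPB, VLDLR and XPOT had no match in their windows, and NUPR1 had no window. A match describes the letters only, and sites outside these windows were not searched.

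The libraries held 20457474 to 23326235 reads on genes after SCARNA13 ASO and 20663908 to 25173559 in controls. SCARNA13 itself rested on 7 reads after SCARNA13 ASO against 13 in controls, too few to resolve its knockdown. Its host transcript SNHG10 measured 3.05, 3.55 and 4.40 FPKM against 4.43, 4.50 and 6.36 FPKM, lower in 3 of 3 replicate pairs. Of 8 hepatocyte markers, ALB, APOB and FGB were at 0 in all 6 libraries, and the 8 summed to at most 2.68 FPKM after SCARNA13 ASO and 3.20 FPKM in controls. Nearly all of that sum came from SERPINA1, detected in every library at 1.37 to 2.545 FPKM after SCARNA13 ASO and 1.55 to 3.19 FPKM in controls. The 5 markers of liver cancer and simple epithelium summed to 1645 to 3369 FPKM and 1790 to 4543 FPKM, nearly all of it from the epithelial keratins KRT8 and KRT18. The liver cancer markers were at or near 0, with GPC3 at 0, AFP at most 0.197 FPKM and EPCAM at most 0.104 FPKM. Apart from SERPINA1 at a low level, the liver origin named in the labels was thus not visible in these markers. Summed markers of fibroblasts reached 6.24 to 8.60 against 5.83 to 6.89 FPKM, and those of immune cells 2.25 to 3.27 against 2.87 to 6.85 FPKM. Most of these sums came from COL3A1 (4.61 to 7.13 against 4.26 to 5.81 FPKM) and CD14 (2.01 to 2.80 against 2.61 to 6.36 FPKM), detected in every library. Endothelial markers summed to at most 0.0703 against 0.106 FPKM. KDR, TEK, CD3E and LYZ were among the markers at 0. The part of other cell types in the results was not tested. Replicate 3 stood apart in both groups. In the decile of genes with the highest GC content its median deviation from the mean of all libraries was 0.76 (SCARNA13 ASO) and 1.05 (Control ASO) on the log2 scale, against -0.50 to -0.39 in the other 4 libraries. In bulk RNA, fewer cells of a type and less RNA per cell cannot be told apart.

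STC2 and SESN2 rose after SCARNA13 ASO, by 1.44-fold and 1.36-fold, in a fit that corrects for GC content and takes the replicate number as a block. DDIT4 had the highest fitted value, 1.52-fold, and missed the threshold by a small margin. CHAC1 and CEBPB stood at 1.29-fold and 1.24-fold and XPOT at 1.16-fold without passing. ASNS was not higher, at 0.889-fold. VLDLR and NUPR1 were too low to enter the fit, and FGF21 had no read in any library. In this fit 2 of the 7 genes tested rose and 0 fell, while 3.06% of all 10104 tested genes rose and 5.21% changed in either direction. The median of the 7 was 0.36 on the log2 scale and that of all genes tested 0.0003.

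The calls depend on the fit and on the replicates in it. The fit with GC correction and block was chosen with earlier results of these data known. Limma-trend on deposited values with no replicate term called 0 of 10120 genes (0%) at an adjusted p of 0.05, with 173 at an unadjusted p under 0.05, and so 0 of the 7. Limma-voom on recovered reads with no block also called 0, with 225 genes (library totals) and 166 (size factors) at that unadjusted p. The block without GC correction called 0 genes too, with 2598 at that unadjusted p, and gave STC2 an adjusted p of 0.0677 and SESN2 one of 0.103. GC correction without the block called 0 of 10104 genes (0%) and 0 of the 7, with 966 genes at that unadjusted p and limma adjusted p-values of 0.468 for STC2 and 0.777 for SESN2. In replicates 1 and 2 alone, on deposited values, STC2, SESN2, CHAC1 and CEBPB rose (4 of 7), while 9.11% of all genes changed and 4.52% rose; with the block added, STC2, SESN2 and CHAC1 rose (3 of 7), against 6.22% and 3.32% of all genes. Leaving replicate 3 out of the GC-corrected block fit gave the same 3 genes, against 7.55% and 4.2%. Without replicate 1 that fit called 0 of the 7, against 0.139% and 0.0594% of all genes, and without replicate 2 it called 0 genes. With all replicates but genes averaging 0.1 FPKM or more, instead of 1 FPKM, it called 0 of 17740 genes (0%). STC2 and SESN2 then each had a limma adjusted p of 0.0942. Limma-voom with a block called STC2, SESN2, DDIT4 and CEBPB with library totals (8.87% of all genes changed, 5.94% rose), and STC2, SESN2 and DDIT4 with size factors (11% changed, 6.09% rose). Whether the replicates were grown separately is not stated in the labels, and the p-values may reflect technical spread alone.

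**Figure D1:**
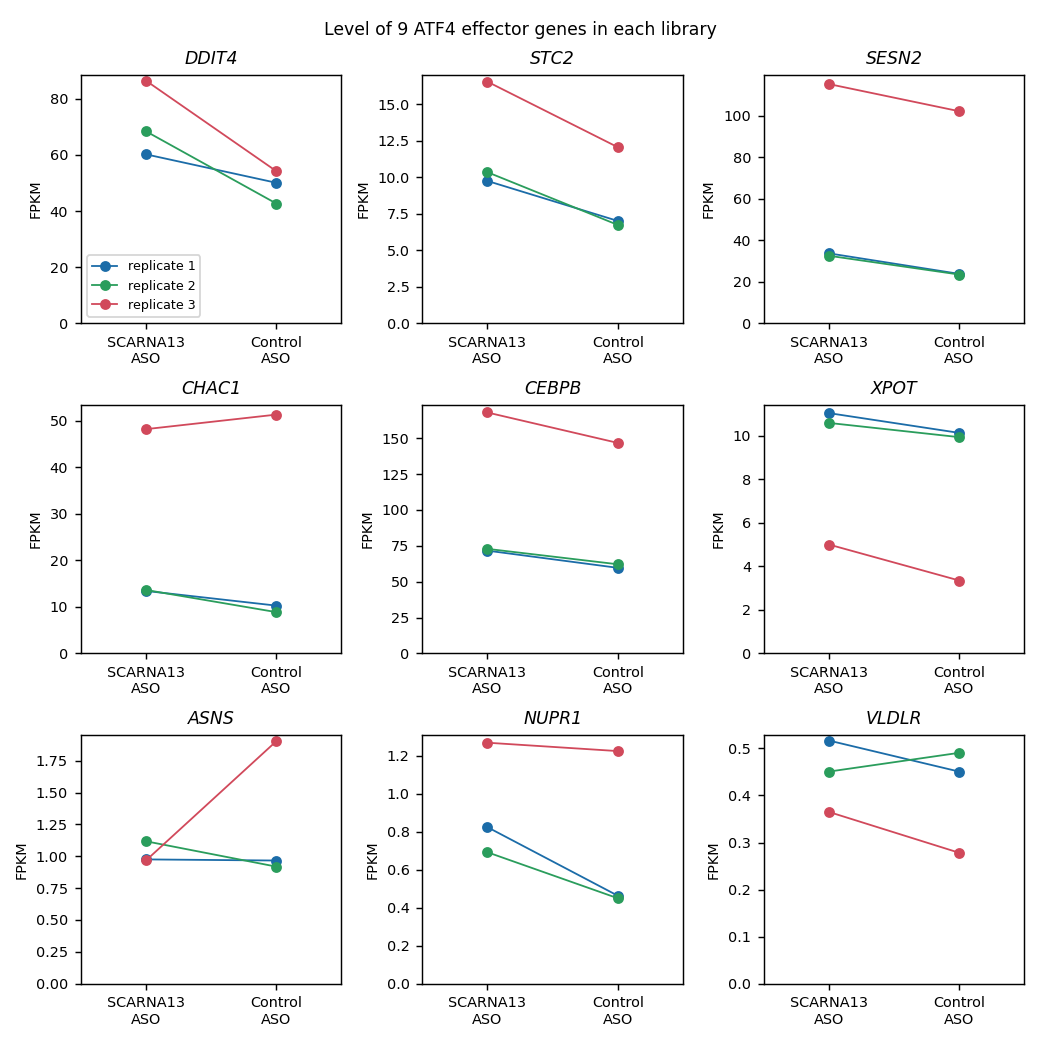
FPKM (vertical axis, linear from 0) of the 9 genes with reads in each library, SCARNA13 ASO left and Control ASO right; lines join libraries of the same replicate number. Replicate 3 lies far from replicates 1 and 2 for SESN2, CHAC1, CEBPB and XPOT, while most lines are higher on the SCARNA13 ASO side; ASNS and CHAC1 in replicate 3 and VLDLR in replicate 2 are the exceptions.

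Of the 10 genes, only DDIT4, a brake on mTORC1, had groups that did not overlap on deposited FPKM. DDIT4 (also REDD1; chr10:72273920-72276036, plus strand, GRCh38) frees the TSC complex to inhibit mTORC1. It measured 60.2, 68.4 and 86.4 FPKM after SCARNA13 ASO, against 50.1, 42.7 and 54.2 FPKM in controls. Every SCARNA13 ASO library was above every control library, which held upward for 4% of all genes tested. On GC-corrected values the DDIT4 groups overlapped, through SCARNA13 ASO replicate 3, while STC2 and CEBPB had every SCARNA13 ASO library above every control library, which held for 9.77% of all genes on that scale. For DDIT4 on deposited FPKM the exact two-sided permutation test gave p = 0.1 (n = 3 each), the smallest value that 3 against 3 libraries allow. With GC correction and block its log2 fold change was 0.60 ± 0.12 (SE; limma adjusted p = 0.0527), and the pairs stood at 0.28, 0.66 and 0.86. Replicate 1 thus carried the smallest difference. The antisense gene DDIT4-AS1, with a mean of 0.0 FPKM over the 6 libraries, covers 847 of the 2058 exonic bases of DDIT4. How reads in shared bases were counted is not given in the sources used here.

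SESN2, the other brake on mTORC1, encodes a sestrin that senses leucine and acts through GATOR2 (chr1:28259527-28282491, plus strand). It measured 33.7, 32.6 and 115 FPKM after SCARNA13 ASO, against 23.8, 23.5 and 102 FPKM in controls. Replicates 1 and 2 differed by 1.42-fold and 1.39-fold between groups, and replicate 3, at several times their level in both groups, by 1.13-fold. After GC correction the pairs were closer, at 0.51, 0.43 and 0.39 on the log2 scale, and the fit gave 0.44 ± 0.051 (SE; limma adjusted p = 0.0365). The relative SESN1 was low, at 0.451 ± 0.185 FPKM after SCARNA13 ASO and 0.496 ± 0.172 FPKM in controls (SD, n = 3 each). TSC2, the partner that DDIT4 acts through, rose 1.30-fold (limma adjusted p = 0.045 with GC correction and block), with 8.30, 8.64 and 20.9 FPKM against 6.39, 6.77 and 17.5 FPKM. TSC1, of the same complex, did not pass (0.966-fold, limma adjusted p = 0.73 in that fit). It measured 1.47, 1.44 and 1.44 FPKM against 1.49, 1.57 and 1.54 FPKM. These groups did not overlap, and the share of all genes apart in that direction was not counted. RHEB, the GTPase that the complex inhibits, stood at 0.14 ± 0.082 (limma adjusted p = 0.283).

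STC2, a stanniocalcin, is a secreted glycoprotein made under endoplasmic reticulum stress that also inhibits the protease PAPP-A (chr5:173314713-173329503, minus strand). It measured 9.74, 10.3 and 16.5 FPKM after SCARNA13 ASO, against 7.01, 6.73 and 12.1 FPKM in controls. The groups overlapped only through Control ASO replicate 3. All 3 pairs were higher, by 1.39-fold, 1.54-fold and 1.37-fold. With GC correction and block the log2 fold change was 0.52 ± 0.060 (SE; limma adjusted p = 0.0365). Its relative STC1 had the opposite sign, with 0.408, 0.372 and 0.449 FPKM after SCARNA13 ASO against 0.895, 0.733 and 0.644 FPKM in controls. The STC1 groups did not overlap (exact two-sided permutation p = 0.1, n = 3 each), on 119 against 229 reads. The share of all genes apart in that direction was not counted, and STC1 was below the level needed for the fit.

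FGF21, the other secreted product, is a hormone that liver releases on fasting and amino acid shortage (chr19:48755559-48758330, plus strand). It had 0 reads in all 6 libraries, although its promoter element is shown above. A count of 0 allows up to 3 reads a library, or 0.0802 to 0.147 FPKM after SCARNA13 ASO and 0.0752 to 0.175 FPKM in controls, for counting error only. A level of FGF21 below these limits was not detectable at this depth. The FGF21 co-receptor gene KLB was near 0 as well, with 7 reads after SCARNA13 ASO and 9 in controls. The receptor FGFR4 averaged 18.2 ± 11.4 FPKM and 24.8 ± 18.6 FPKM (SD, n = 3 each). FGFR4 was lower in all 3 pairs, at 0.84-fold, 0.81-fold and 0.68-fold. With GC correction and block it stood at -0.28 ± 0.054 (SE; limma adjusted p = 0.0517), a narrow miss. The receptor FGFR1 had the opposite sign, at 0.25 ± 0.073 (limma adjusted p = 0.0957 in that fit).

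**Figure D2:**
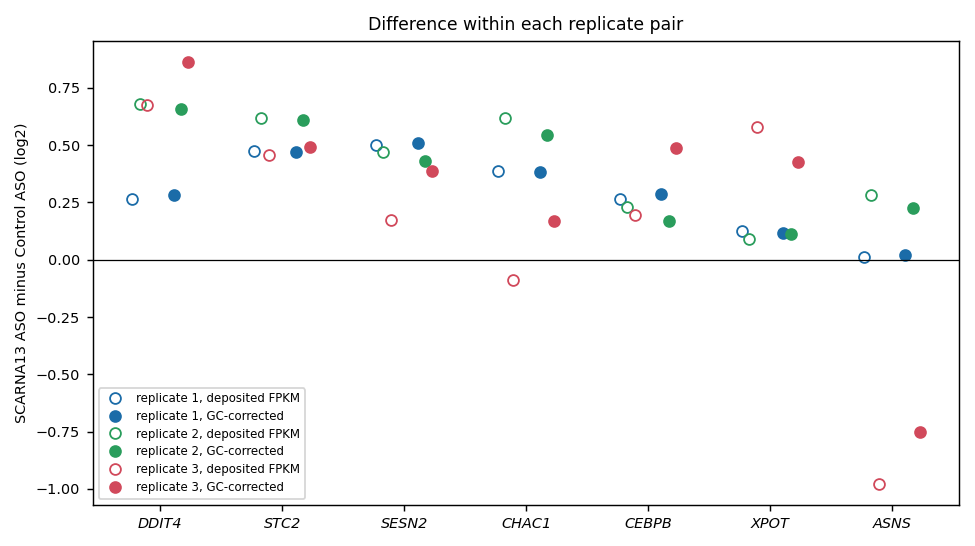
Log2 difference between SCARNA13 ASO and Control ASO (vertical axis) within each replicate number for the 7 tested genes; open points are deposited FPKM and filled points GC-corrected log2 values. After correction all pairs but 1, ASNS in replicate 3 at -0.75, lie above 0, and CHAC1 in replicate 3 moves to 0.17, against -0.091 on deposited values.

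CHAC1 encodes an enzyme that breaks down glutathione and is among the genes most strongly induced by ATF4 in other settings (chr15:40952962-40956519, plus strand). It measured 13.4, 13.7 and 48.2 FPKM after SCARNA13 ASO, against 10.3, 8.89 and 51.3 FPKM in controls. It was higher in replicates 1 and 2, by 1.31-fold and 1.54-fold, and lower in replicate 3, at 0.939-fold. With GC correction all 3 pairs were above 0, at 0.38, 0.54 and 0.17, and the fit gave 0.36 ± 0.083 (SE; limma adjusted p = 0.0667). Replicates 1 and 2 alone gave 0.48 ± 0.078 with a limma adjusted p of 0.0325. The constitutive relative CHAC2 stood at -0.053 ± 0.10 (adjusted p = 0.756 in the fit with GC correction and block).

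ASNS makes asparagine and is a classic reporter of amino acid shortage (chr7:97852118-97872542, minus strand). It measured 0.976, 1.12 and 0.967 FPKM after SCARNA13 ASO, against 0.967, 0.919 and 1.90 FPKM in controls. Only Control ASO replicate 3 stood apart, so replicate 3 alone differed by 0.508-fold while replicates 1 and 2 gave 1.01-fold and 1.22-fold. These values rest on 327 reads after SCARNA13 ASO against 351 in controls, and the ratio of scaled reads was 0.918 (exact 95% interval 0.787 to 1.07, counting error only). The log2 fold change was -0.17 ± 0.21 with GC correction and block (limma adjusted p = 0.614), and 0.099 ± 0.12 in replicates 1 and 2 alone (limma adjusted p = 0.605). ASNS was thus low and without a resolved change, although it holds the element shown above. A same-strand transcript, AC079781.5, with a mean of 0.01 FPKM over the 6 libraries, shares 1985 of the 4455 exonic bases of ASNS.

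XPOT carries mature tRNA out of the nucleus (chr12:64404350-64451127, plus strand). It measured 11, 10.6 and 5.0 FPKM after SCARNA13 ASO, against 10.1, 9.93 and 3.35 FPKM in controls. The difference came mostly from replicate 3, at 1.49-fold, against 1.09-fold and 1.07-fold in replicates 1 and 2. With GC correction and block it was 0.22 ± 0.086 (SE; limma adjusted p = 0.16). Of other exportins, XPO1, which exports proteins, stood at 0.080 ± 0.090 and XPO5, which exports microRNA precursors, at -0.024 ± 0.065 in that fit, with adjusted p of 0.577 and 0.824. XPO6, which exports actin, stood at 0.24 ± 0.062 (limma adjusted p = 0.079), slightly above XPOT. It measured 22.3, 21.9 and 24.6 FPKM after SCARNA13 ASO against 19.1, 20.1 and 20.9 FPKM in controls. These XPO6 groups did not overlap, which held upward for 4% of all genes tested.

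CEBPB, a C/EBP transcription factor that can pair with ATF4, was the most abundant of the 10 (chr20:50190734-50192689, plus strand). It measured 71.6, 72.9 and 168 FPKM after SCARNA13 ASO, against 59.7, 62.1 and 147 FPKM in controls. All 3 pairs were higher by similar folds, 1.20, 1.17 and 1.14, and GC correction spread them to 0.28, 0.17 and 0.49 on the log2 scale. The fit with GC correction and block gave 0.31 ± 0.074 (SE; limma adjusted p = 0.0696). Its relative CEBPD rose 1.45-fold (limma adjusted p = 0.036 in that fit), with 14.9, 15.3 and 11.8 FPKM against 10.1, 10.6 and 9.54 FPKM. The CEBPD groups did not overlap on deposited FPKM, which held upward for 4% of all genes tested. CEBPA, the family member tied to mature hepatocytes, stood at -0.34 ± 0.14 (limma adjusted p = 0.168).

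NUPR1, a small chromatin protein induced by stress, was low (chr16:28532708-28539174, minus strand). It measured 0.824, 0.692 and 1.27 FPKM after SCARNA13 ASO, against 0.464, 0.450 and 1.23 FPKM in controls, from 351 and 239 reads. It was higher in 3 of 3 pairs, by 1.78-fold, 1.54-fold and 1.04-fold, and the groups overlapped through Control ASO replicate 3. The ratio of scaled reads was 1.45 (exact 95% interval 1.22 to 1.71, counting error only). When the level needed was lowered to a mean of 0.1 FPKM, the fit with GC correction and block gave NUPR1 0.30 ± 0.12 (limma adjusted p = 0.272). At that level the fit called 0 of 17740 genes (0%), with 3672 at an unadjusted p under 0.05. The deposited length of 5674 bases divides the reads of this gene, so a shorter transcript would have a higher level per length.

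VLDLR, a lipoprotein receptor through which ATF4 can raise lipid uptake in liver, had the lowest mean over all 6 libraries of the 9 genes with reads (chr9:2621834-2660053, plus strand), although NUPR1 was lower in Control ASO replicate 2. It measured 0.517, 0.451 and 0.365 FPKM after SCARNA13 ASO, against 0.451, 0.491 and 0.278 FPKM in controls. Replicates 1 and 3 were higher after SCARNA13 ASO and replicate 2 lower, and the groups overlapped. On 304 and 284 reads the ratio of scaled reads was 1.05 (exact 95% interval 0.894 to 1.24, counting error only), so no difference was resolved at this depth.

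**Figure D3:**
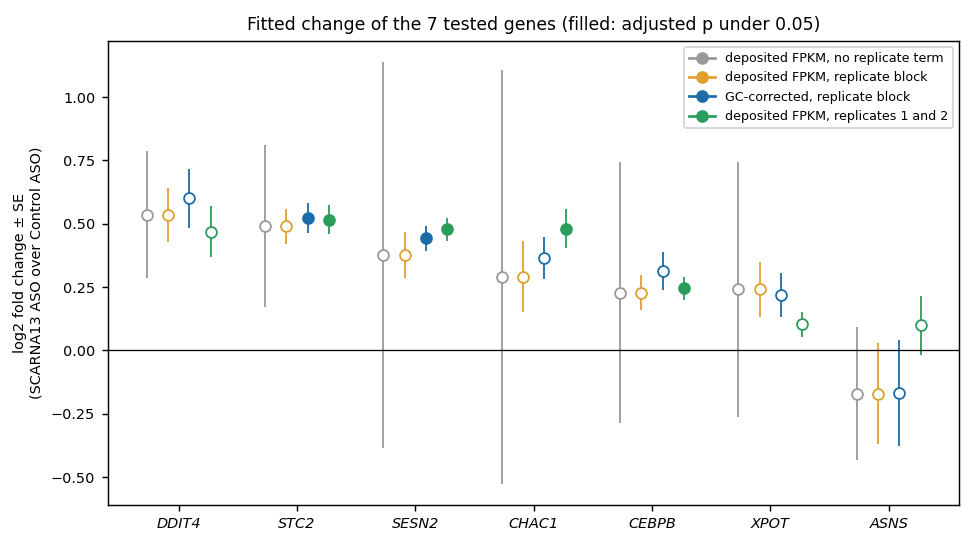
Log2 fold change with its SE (vertical axis) of the 7 tested genes in 4 fits, with filled points where the adjusted p was under 0.05. STC2 and SESN2 are filled in the GC-corrected fit with a block and in replicates 1 and 2, CHAC1 and CEBPB only in replicates 1 and 2; with no replicate term the SE of CHAC1 is 0.82.

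Across libraries, the distance of replicate 3 from the others differed by gene and followed GC content only in part. CHAC1, with a GC content of 62.6% in its longest transcript, was at 3.56 times the mean of replicates 1 and 2 in SCARNA13 ASO replicate 3 and at 5.36 times in Control ASO replicate 3. XPOT, at 40.8%, was at 0.463 and 0.334 times. For SESN2 (59.5%) these ratios were 3.48 and 4.32, and for CEBPB (66.2%) 2.32 and 2.41. DDIT4 was nearer to the other replicates, at 1.34 and 1.17, with a GC content of 58.1%. STC2 (51.7%) at 1.647 and 1.755 and NUPR1 (50.3%) at 1.674 and 2.682 lay above DDIT4 at a lower GC content. ASNS (47.0%) was at 0.924 and 2.02 and VLDLR (42.7%) at 0.7545 and 0.591. After GC correction Control ASO replicate 3 still stood at 5.89 on the log2 scale for SESN2, against 4.96 and 4.93 in control replicates 1 and 2. For DDIT4 it then lay lower, at 5.06 against 5.97 and 5.74. The part that GC content played in the group difference of a single gene was not tested beyond the corrected fit.

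**Figure D4:**
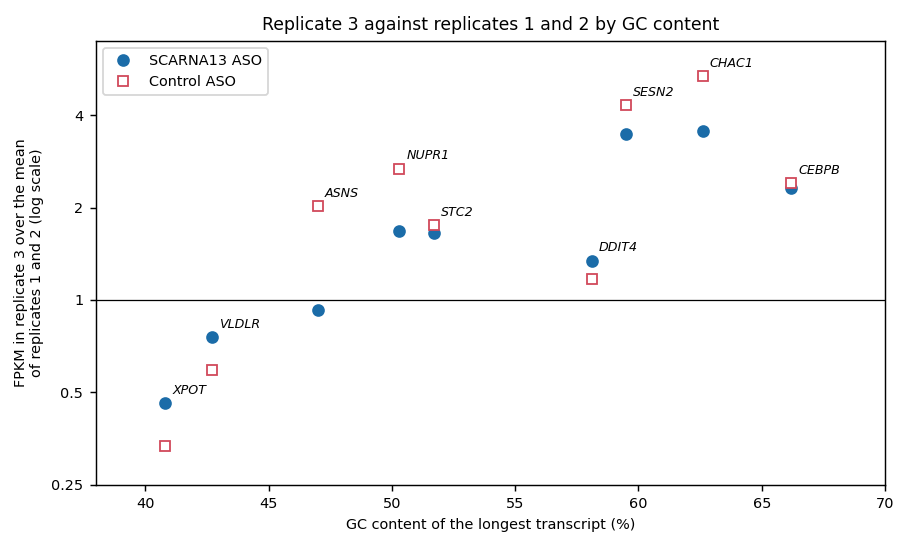
FPKM in replicate 3 over the mean of replicates 1 and 2 (vertical axis, log scale) against the GC content of the longest transcript in percent, for the 9 genes with reads, SCARNA13 ASO filled and Control ASO open. Ratios run from 0.334 for XPOT to 5.36 for CHAC1, both in controls.

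By sign alone, 6 of the 10 genes were higher in all 3 replicate pairs on deposited FPKM: STC2, SESN2, DDIT4, CEBPB, NUPR1 and XPOT. This held for 23.9% of all 10120 tested genes, a count that leaves out NUPR1, which was below the level needed. After GC correction it held for 6 of the 7 tested genes, all but ASNS, against 28.9% of all genes. As reads divided by the library total it held for 7 of the 10, against 33.9%.

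The genes around them moved in part. Of 13 tested genes of the integrated stress response core, 5 rose, 0 fell and 8 did not pass in the fit with GC correction and block, and their median was 0.12 on the log2 scale. Of all genes tested in that fit 3.06% rose and 5.21% changed, and their median was 0.0003. ATF4 itself rose 1.21-fold (limma adjusted p = 0.0483), with 217, 213 and 231 FPKM after SCARNA13 ASO against 182, 174 and 215 FPKM in controls. DDIT3, encoding the death-promoting partner CHOP, rose 1.52-fold, with 26.9, 24.0 and 39.0 FPKM against 17.2, 17.2 and 24.6 FPKM. TRIB3, a pseudokinase that feeds back on ATF4, rose 1.51-fold, PPP1R15A, which reverses eIF2 phosphorylation, 1.45-fold and GADD45A, a growth arrest gene, 1.44-fold. ATF3 (-0.10 ± 0.21) and ATF5 (-0.18 ± 0.099), transcription factors of the same response, did not pass, with adjusted p of 0.771 and 0.282. The eIF2 kinase genes EIF2AK1, EIF2AK2 and EIF2AK4 stood at -0.057, 0.049 and 0.12, and EIF2AK3 was below the level needed.

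In the other branches of the programme, 8 of 25 tested genes rose, 0 fell and 17 did not pass, with a median of 0.31, beside 3.06% of all tested genes that rose. The 4 tRNA synthetase genes AARS (1.40-fold), WARS (1.36-fold), IARS (1.30-fold) and MARS (1.28-fold) were among them. So were the cystine carrier SLC7A11 (1.45-fold), the glycine carrier SLC6A9 (1.41-fold), the serine synthesis enzyme PHGDH (1.36-fold) and the proline synthesis enzyme PYCR1 (1.25-fold). Among 15 tested relatives and partners of the 10 genes, CEBPD and TSC2 rose, 0 fell and 13 did not pass, and the median was 0.080. Limma adjusted p-values of the genes that rose in these 3 lists were 0.036 to 0.0488 in this fit and 1 with no replicate term.

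**Figure D5:**
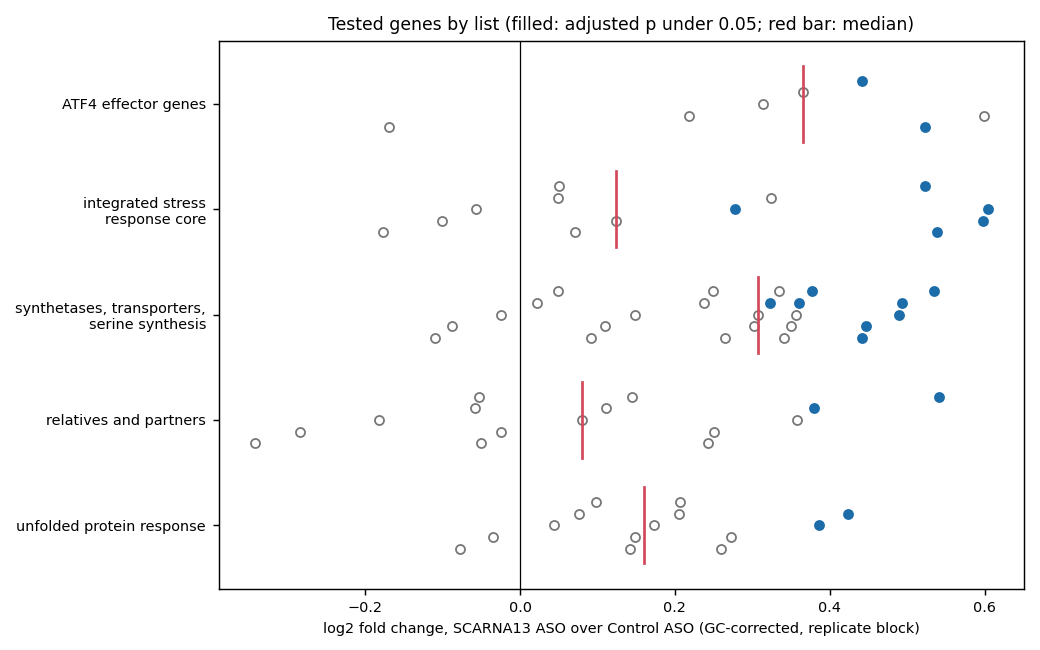
Log2 fold change with GC correction and block (horizontal axis) of the tested genes in each list; filled points passed an adjusted p of 0.05 and red bars are medians. The filled points, 2 of 7 ATF4 effector genes, 5 of 13 core genes, 8 of 25 synthetase, transporter and serine synthesis genes, 2 of 15 relatives and partners and 2 of 14 unfolded protein response genes, all lie to the right of 0; 3.06% of all genes tested rose.

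The genes whose GC-corrected profile was most like the mean standardised profile of the 7 were HEBP1, a heme-binding protein (r = 0.995 over 6 libraries), VAT1 (0.994), PLAT, tissue plasminogen activator (0.990), NAV3 (0.990) and ERFE, a hormone of iron metabolism (0.987). These values share the 6 libraries, their groups and their replicate numbers. Among the 7 genes themselves, r with their own mean was 0.954 for STC2, 0.758 for SESN2, 0.742 for CEBPB, 0.720 for CHAC1, 0.409 for DDIT4, 0.050 for ASNS and -0.002 for XPOT. Each gene is part of that mean. PLAT measured 98.8, 100.3 and 98.8 FPKM after SCARNA13 ASO against 71.0, 71.7 and 64.7 FPKM in controls.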

How the data were processed

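Per the labels' protocols, sequencing libraries were TruSeq RNA preparations of total RNA. The deposited values are FPKM per gene and library, with gene length and position; the submitters' processing notes list TopHat2 2.0.9, Bowtie2 2.0.6 and hg19 but not how each was used. Positions are those of GRCh38: start and end matched GENCODE 29 for 97.6% of shared identifiers. FPKM times gene length was a whole multiple of 1 step per library (100% of values, tolerance 0.01 reads), so reads were recovered. The library size implied was 0.760 of the read total in SCARNA13 ASO replicate 3 and 0.633 in Control ASO replicate 3, against 1.21 to 1.24 in the rest. No libraries were duplicates (chi-square per gene at least 3.16).

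Limma 3.58.1 (R 4.3.3) was run on log2(FPKM + 0.5) with an intensity trend over genes averaging 1 FPKM or more, two-sided, with Benjamini-Hochberg adjustment over all genes tested. Folds are on that scale, which understates changes of low genes. The second fit subtracted a loess trend (span 0.5) on GC content per library, from the longest GENCODE 29 transcript, and took replicate number as a block. Same-numbered libraries deviated together (correlations of 0.835, 0.785 and 0.915), so the numbers were taken as pairs; the crossed pairs of replicates 1 and 2 (0.805 and 0.814) show that the values set apart only replicate 3, and the pairing rests on the titles. Fits were tested on simulated data, where the limma-trend fits with a block made a larger share of false calls than the threshold allows, so calls near it are less firm than their adjusted p. Named are all 10 genes, list genes that passed, direct relatives and partners, and the 5 most alike profiles; ATF3, ATF5, the eIF2 kinase genes, CDKN1A, ANKRD37, NDRG1, PER1, DUSP1 and PLIN2 were chosen after their values were seen. The genes, the lists and the second fit were chosen with earlier results of these data known. Intervals are exact at 95%.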

Additional observations from a re-analysis of the deposited data

How the results depend on the processing

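Against 0 genes and 0 of the 7 tested ATF4 effector genes called with no replicate term, the replicate block with GC correction called 526 genes and 2 effector genes, replicates 1 and 2 only 922 and 4, and replicates 1 and 2 with the replicate block 629 and 3. Limma-voom on recovered reads with the replicate block, added after the data were seen, called 898 and 4 (library totals; STC2, SESN2, DDIT4 and CEBPB) or 1116 and 3 (size factors; STC2, SESN2 and DDIT4). The GC-corrected block fit over genes averaging 0.1 FPKM or more, also added after the data were seen, called 0 genes and 0 effector genes. STC2 and SESN2 then each had a limma adjusted p of 0.0942. Leaving out 1 replicate number of the GC-corrected block fit gave 0 to 763 genes and 0 to 3 effector genes. The counts were 14 and 0 without replicate 1, 0 and 0 without replicate 2, and 763 and 3 without replicate 3. The median log2 fold change of the 7 was 0.29; it was 0.47 in replicates 1 and 2 only, with and without block, and 0.46 in the GC-corrected block fit without replicate 3. Leaving out single libraries with no block gave medians of -0.15 (without SCARNA13 ASO replicate 3) to 0.65 (without Control ASO replicate 3). Without SCARNA13 ASO replicate 3, SESN2 stood at -0.22, CHAC1 at -0.31, CEBPB at -0.18 and XPOT at 0.59. Without Control ASO replicate 3, SESN2 stood at 1.07, CHAC1 at 1.08, CEBPB at 0.65, XPOT at -0.24 and ASNS at 0.074. CHAC1 was -0.053 without Control ASO replicate 1 and -0.15 without Control ASO replicate 2, and ASNS was 0.099 in replicates 1 and 2 only and 0.12 in the GC-corrected block fit without replicate 3. These leave-outs unbalance replicate 3 between the groups; the cause was not tested further. STC2 (0.26 to 0.75) and DDIT4 (0.39 to 0.76) stayed above 0 in all 24 alternatives. Levels near 1 FPKM and below limit ASNS, NUPR1, VLDLR and FGF21.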

Other observations

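Several of the 10 genes also answer to other regulators, and lists for these were counted in the fit with GC correction and block. Of 14 tested genes of the unfolded protein response of XBP1 and ATF6, 2 rose, 0 fell and 12 did not pass, with a median of 0.16 on the log2 scale. HSPA5 rose 1.34-fold (limma adjusted p = 0.0365) and CALR 1.31-fold (limma adjusted p = 0.047). Of 11 tested p53 targets, which as a class include SESN2, 1 rose (GDF15, 1.24-fold, limma adjusted p = 0.0477), 0 fell and 10 did not pass, with a median of -0.0041. CDKN1A, the best known of them, stood at -0.0041 ± 0.092 (limma adjusted p = 0.979). On deposited FPKM the GDF15 pairs stood at 1.237-fold, 1.325-fold and 1.002-fold.

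Of 8 tested hypoxia genes, a response that can raise DDIT4 and VLDLR, only EPAS1, 2.15-fold higher, passed, and the other 7 lay between -0.56 ± 0.19 for ANKRD37 (limma adjusted p = 0.126) and 0.36 ± 0.080 for NDRG1 (limma adjusted p = 0.065). None of 4 tested glucocorticoid response genes passed in either direction in this limma fit, with PER1 at -0.35 ± 0.064 (unadjusted p = 0.00273, adjusted p = 0.0507) and DUSP1 at 0.31 ± 0.060 (unadjusted p = 0.00334, adjusted p = 0.0529). Of 3 tested PPAR lipid genes, ANGPTL4 fell to 0.44 of the control level, and PLIN2 stood at -0.29 ± 0.076 (limma adjusted p = 0.0794). In this fit 3.06% of all tested genes rose and 5.21% changed in either direction. With no replicate term 0 of 10120 genes passed, so no gene of these lists did.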
